A study of Homo sapiens with 14 samples.

Results

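Edit sites in introns close to exons were taken as the C-to-U positions that lay inside a protein-coding gene on the gene's own strand, in no annotated exon of that strand, and at most 500 nt from the nearest exon edge of that gene (Gencode 44, hg38). They are called near-exon sites here. Of 363599 distinct edit positions in the 14 libraries, 13201 met this rule. They fell upstream of the nearest exon, that is before its 3′ splice site, at 5102 positions and downstream of it, after its 5′ splice site, at 8099, in 4832 genes and beside 9071 exon flanks. The windows end at a cut in distance that no step in the data marked: 192 positions lay in the last 10 nt inside it and 193 in the first 10 nt beyond it.

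The cells were HEK293T, a line of human embryonic kidney origin that the labels also write as HEK293XT. They were fixed in methanol, and their RNA was sequenced from an input of 1 ng or 100 pg. Each input had 3 RBFOX2 libraries, from cells given an antibody against RBFOX2 and then the cytidine deaminase APOBEC1 fused to a nanobody that binds the antibody. It also had 3 Buffer_only libraries, with neither antibody nor enzyme, and 1 Enzyme_only library, with the enzyme and no antibody. The replicates were slides or wells of one line that the study calls technical, so p-values measure only the spread between such samples, and the Enzyme_only library has no replicate and entered no test.

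RBFOX2 is a splicing regulator that reads the hexamer UGCAUG in RNA. In introns the position of the motif matters: binding after an exon is known to favour inclusion of that exon, and binding before it to favour skipping, so the introns beside exons are where its regulatory sites are classically found. APOBEC1 converts cytosine to uracil and is known to prefer a cytosine that follows A or U. Introns are removed soon after transcription, and reads from them in total RNA come from unspliced or partly spliced transcripts.

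The copies of UGCAUG beside which near-exon sites were called in all 3 RBFOX2 libraries at 1 ng numbered 5. They are shown first, as the copies that repeated in the most libraries, with another pair in which the edits are dense (PKD2) or which also carried sites at 100 pg (IARS1). These 7 were picked after their values were seen, since no single position met the rule for printing, which asked for a position called in all 3 RBFOX2 libraries, in no control and within 20 nt of the motif centre. The only position called in all 3 and in no control, in MTHFD2, lay 21.5 nt away. Each is the hg38 reference on the strand of the gene, 5′ to 3′. The run of 6 capitals in the middle is the motif, and each further capital C is a position called as edited in an RBFOX2 library of either input.
MTHFD2, plus strand, chr2:74213894-74213923: CaaCtCtgtatgTGCATGttattttaCtag
SRSF11, plus strand, chr1:70228908-70228937: ccttCaaataaaTGCATGatgttatttCtg
DNM2, plus strand, chr19:10808288-10808317: gaaCgtaaCcatTGCATGatttatttttgc
VPS29, minus strand, chr12:110498337-110498366: catgtaCatttaTGCATGcaatatCtgtaa
GARS1, plus strand, chr7:30615403-30615432: aaccattttatcTGCATGtcactattCaat
PKD2, plus strand, chr4:88047018-88047047: attttCtCatttTGCATGagtaaCtttgCt
IARS1, minus strand, chr9:92293172-92293201: attttgtaCattTGCATGagtataCCtgtg

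The MTHFD2 copy held the most edits of any motif copy near an exon. MTHFD2 encodes a mitochondrial enzyme of folate metabolism. Its motif lies 168 nt before the last exon (chromosome 2, 74214079 to 74217565) in an intron of 1950 nt. Near-exon sites within 50 nt of it numbered 6, 5 and 3 in the RBFOX2 libraries at 1 ng and 0 in every control library of that input. These 14 calls fell on 8 positions on both sides of the motif, with edit fractions from 0.0435 to 0.313 and a median of 0.1, on 9 to 23 reads each. A position at 74213930, 21.5 nt 3′ of the motif centre, was called in all 3 libraries, with 4 edited of 57 reads, and 74213894, 14.5 nt 5′ of it, held 6 edited of 26 reads in 2 libraries. At 100 pg 1 site was called there, in 1 RBFOX2 library.

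The other copies held fewer or more shallow edits. SRSF11, an SR-related splicing factor, carried the motif 193 nt after an internal exon, with 3, 2 and 2 sites in the RBFOX2 libraries at 1 ng, none in its controls, and low edit fractions of 0.0172 to 0.0638 on 42 to 61 reads. One of these SRSF11 positions, 70228922, is the cytosine of the motif itself. DNM2 encodes dynamin 2, a GTPase of membrane fission, and its motif stood 214 nt before an internal exon. It had 2 sites in each of the 3 RBFOX2 libraries and 1 in a Buffer_only library.

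VPS29, a subunit of the retromer that recycles cargo from endosomes, had its motif 442 nt after a cassette exon, an exon that lies wholly inside an annotated intron of another transcript, with 1, 2 and 1 sites. GARS1, the glycyl-tRNA synthetase, had 1 site in each library beside a motif 476 nt before an exon. In VPS29 and GARS1 no control library of 1 ng held a site by the motif, and 1 RBFOX2 library at 100 pg did.

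Copies that repeated were few against all copies with a near-exon site. At 1 ng the RBFOX2 libraries together had near-exon sites by 263 copies of UGCAUG, of which 22 were reached in 2 libraries and 5 in 3. The 3 Buffer_only libraries had 51 copies, 3 of them in 2 libraries and 0 in 3, and the Enzyme_only library had 43. Of the 27 copies reached in at least 2 RBFOX2 libraries, 21 had no site in any control of that input, 18 lay downstream and 9 upstream of the exon, 11 flanked a cassette exon, and the motif stood 6 to 476 nt from the exon with a median of 189 nt. These copies were chosen by their RBFOX2 calls, and the controls held fewer sites in all, so the 21 without a control site are a description. Over all near-exon sites of the RBFOX2 libraries at 1 ng, 62.7% lay downstream and 37.6% beside a cassette exon. The 18 and the 11 are thus not read as a preference of these copies. At 100 pg there were 93 copies in RBFOX2 libraries, 1 of them in 2 libraries, against 44 in Buffer_only and 23 in Enzyme_only.

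PKD2, which encodes the channel polycystin-2, held 0, 2 and 3 sites by its copy at 1 ng, and IARS1, the isoleucyl-tRNA synthetase, held 0, 1 and 3, with no control site in either. IARS1 was the only one of the printed copies with more than 1 site at 100 pg. There its RBFOX2 libraries held 4 sites and its Buffer_only libraries 1.

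The first comparison asked how many near-exon sites each treatment gave. At 1 ng the RBFOX2 libraries held 1491, 1673 and 1620, the Buffer_only libraries 535, 665 and 665, and the Enzyme_only library 1537. The RBFOX2 and Buffer_only libraries did not overlap, and the Enzyme_only library lay inside the RBFOX2 range. The RBFOX2 mean was 2.57 times the Buffer_only mean (exact two-sided permutation test, p = 0.1, the smallest that 3 libraries against 3 allow).

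In the 100 pg input the RBFOX2 libraries held 873, 881 and 874 sites, the Buffer_only libraries 665, 702 and 644, and the Enzyme_only library 813. The groups did not overlap here either, but the ratio was 1.31 (exact permutation p = 0.1). The excess over Buffer_only was 767 sites larger at 1 ng than at 100 pg (exact permutation over 400 arrangements of the input labels, p = 0.03, and 0.07 when adjusted over 6 such differences).

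On either side of the exon the RBFOX2 libraries held more sites than the Buffer_only libraries. Upstream of exons the 1 ng libraries held 595 ± 41.9 sites with RBFOX2 and 234 ± 41.4 with Buffer_only (SD, n = 3; exact permutation p = 0.1), and 541 with Enzyme_only. Downstream they held 999 ± 54.5, 387 ± 34.6 (exact permutation p = 0.1) and 996. The upstream values at 100 pg were 362 ± 24.6, 278 ± 22.9 (exact permutation p = 0.1) and 299, and the downstream values 514 ± 21.7, 392 ± 27.4 (exact permutation p = 0.1) and 514. The Enzyme_only library of 100 pg was thus below every RBFOX2 library upstream, where the lowest held 334, and inside their range downstream. A difference between the sides was not tested.

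More sites lay downstream than upstream in 14 of 14 libraries, Buffer_only included. The downstream share was 62.7% with RBFOX2 and 62.5% with Buffer_only at 1 ng, and 58.7% and 58.5% at 100 pg (exact permutation p = 1 for both). It was 64.8% (95% Wilson interval 62.4 to 67.1) and 63.2% (59.9 to 66.5) in the Enzyme_only libraries. In the 4832 genes with a near-exon site the windows hold nearly the same number of reference cytosines on both sides, 6157320 upstream and 6198984 downstream. How many of them were read is not in the files, which list called positions only.

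**Figure D1:**
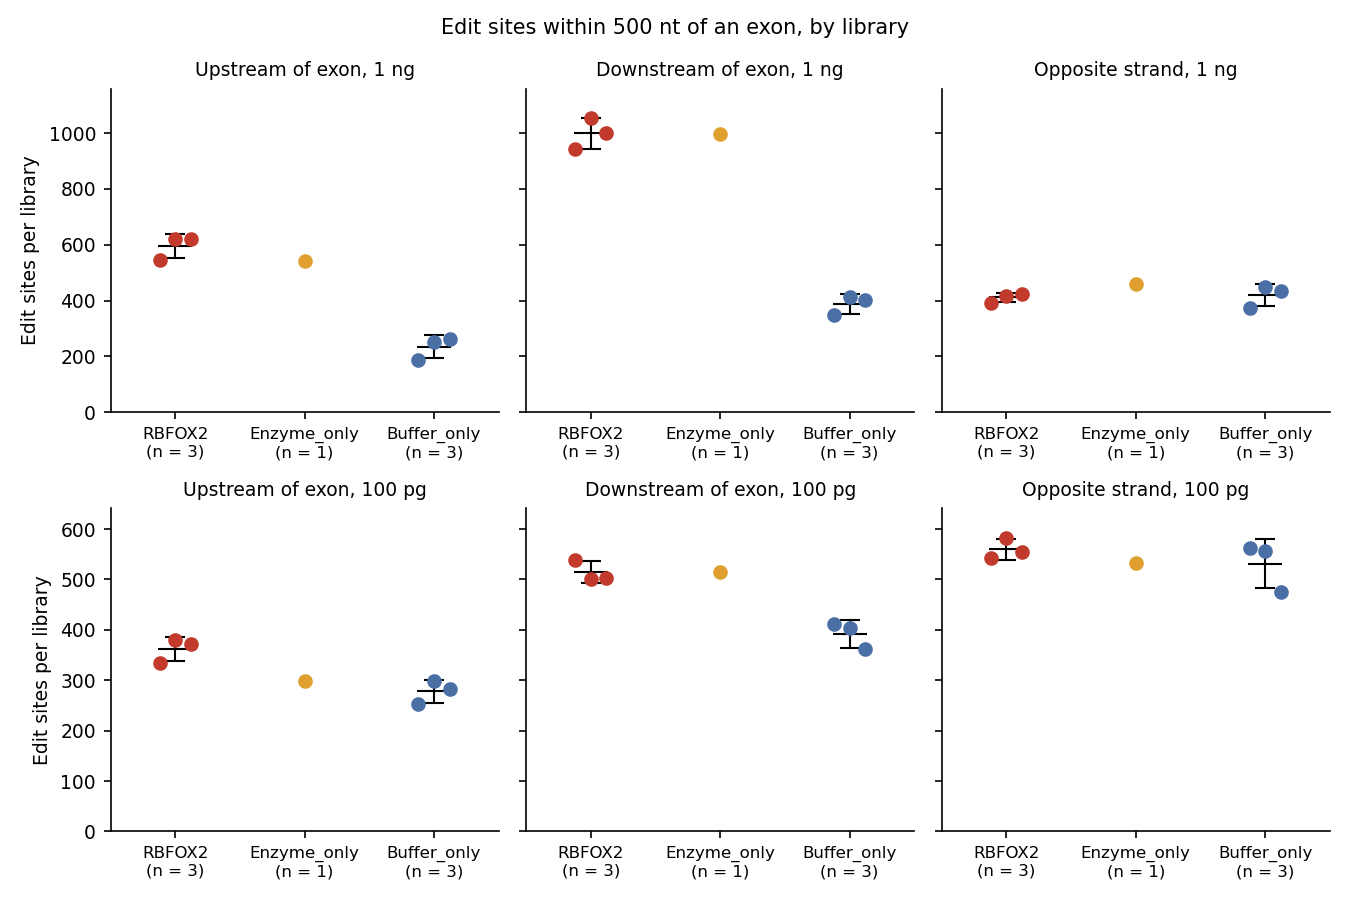
Edit sites per library within 500 nt upstream of an exon, downstream of it, and on the opposite strand of both windows (vertical axis, number of sites; horizontal axis, treatment), at 1 ng above and 100 pg below. Points are libraries, and horizontal marks with error bars are the mean and SD of 3. At 1 ng the RBFOX2 points sit at 547 to 620 upstream and 944 to 1053 downstream, above every Buffer_only point, while on the opposite strand the groups overlap.

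The strand opposite to the gene gives the background measured in the same windows, since an edit of the gene's own transcript cannot be called there. At 1 ng it held 412 ± 16.8 sites with RBFOX2, 419 ± 38.9 with Buffer_only (SD, n = 3; exact permutation p = 0.8) and 460 with Enzyme_only. The 3 values at 100 pg were 560, 531 (exact permutation p = 0.6) and 532 in both windows together, against 876, 670 and 813 on the gene strand. The study names the NEBNext Single Cell/Low Input kit for both inputs and does not state whether it kept RNA strand. Reads of an overlapping antisense transcript therefore cannot be told apart.

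The second comparison concerned UGCAUG, searched as these letters on the strand of the gene and counted as near when its centre lay within 50 nt of the site. Near-exon sites with the motif nearby were 7.78%, 8.49% and 7.90% of the RBFOX2 libraries at 1 ng. They were 3.18%, 3.01% and 2.71% of the Buffer_only libraries and 3.32% (95% Wilson interval 2.53 to 4.34) of the Enzyme_only library. Every RBFOX2 library was above every control, at 2.72 times the Buffer_only mean (exact permutation p = 0.1). Of all cytosines in these windows, counted in the genes with a near-exon site, 2.78% lie as close to the motif, near the level of the controls.

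Other motifs were counted in the same way at 1 ng. The shorter GCAUG lay near 15.5% of the sites with RBFOX2 and 9.51% with Buffer_only, without overlap (exact permutation p = 0.1). GCACG, a variant of the motif with C for U, lay near 2.46% and 3.40% with overlapping libraries (exact permutation p = 0.2). UGUGUG, which the RNA-binding protein TDP-43 reads, lay near 4.75% and 4.13%, a small difference in which the libraries did not overlap either (exact permutation p = 0.1).

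The share at 100 pg was 4.58%, 4.20% and 4.0% with RBFOX2, 1.65%, 2.56% and 2.33% with Buffer_only, and 2.83% (1.89 to 4.21) with Enzyme_only. The groups did not overlap, with a ratio of 1.95 (exact permutation p = 0.1). The 2 lower RBFOX2 values lay inside the Wilson interval of the Enzyme_only library. The gap between RBFOX2 and Buffer_only was 3.01 percentage points wider at 1 ng, which did not pass the test of the difference between inputs (exact permutation p = 0.1, adjusted 0.12).

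By side, the motif share upstream of exons at 1 ng was 8.96%, 8.06% and 7.92% with RBFOX2, against 2.67%, 1.98% and 1.89% with Buffer_only and 2.77% (1.69 to 4.52) with Enzyme_only. Downstream it was 7.10%, 8.74% and 7.89%, against 3.45%, 3.63% and 3.24%, and 3.61% (2.62 to 4.96). No Buffer_only library reached an RBFOX2 library on either side (exact permutation p = 0.1 for each). The sites were close to equally rich in the motif before and after the exon in RBFOX2 libraries, at 8.31% and 7.91%.

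The downstream minus upstream difference was −0.40 percentage points with RBFOX2 and 1.26 with Buffer_only at 1 ng (exact permutation p = 0.1). The Buffer_only value rests on 5 upstream sites by a motif in each library, and the groups overlapped under most other settings tried. At 100 pg the RBFOX2 share was 2.93% upstream and 5.17% downstream, and the Buffer_only share 1.94% and 2.4%. The upstream groups there were apart by little, with the lowest RBFOX2 library at 2.42% and the highest Buffer_only library at 2.37%. The side difference was 2.24 against 0.46 percentage points and the groups overlapped (exact permutation p = 0.3).

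**Figure D2:**
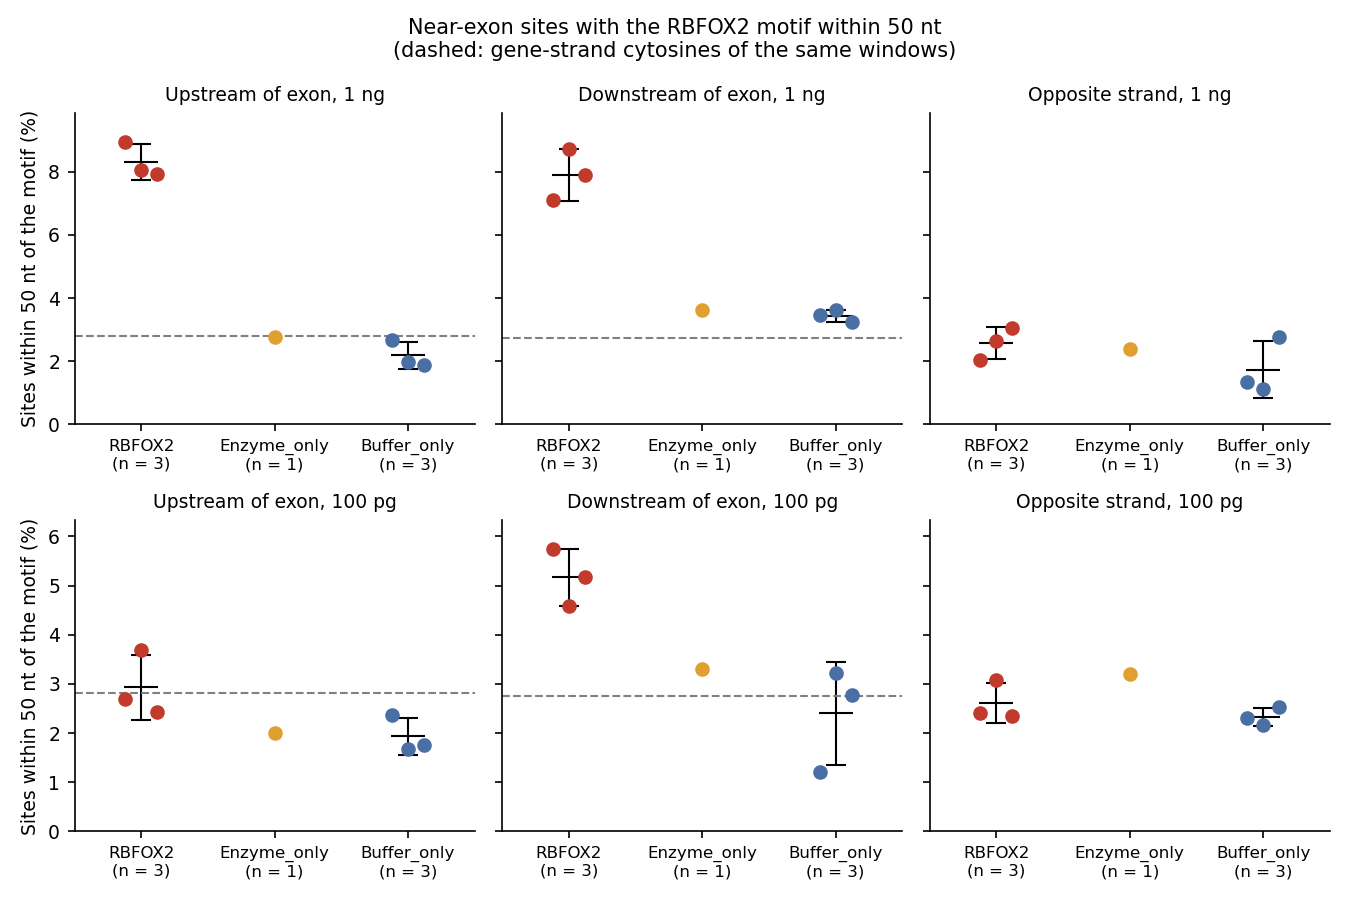
Share of near-exon sites with UGCAUG within 50 nt (vertical axis, percent) by treatment (horizontal axis), upstream, downstream and on the opposite strand, at 1 ng above and 100 pg below. Points are libraries, and bars are the mean and SD of 3. The dashed line is the share of gene-strand cytosines of the window in genes with a near-exon site, 2.81% upstream and 2.75% downstream. RBFOX2 libraries at 1 ng sit at 7.10% to 8.96% on the gene strand and near 2.58% on the opposite strand.

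On the opposite strand of these windows the motif share was 2.58% with RBFOX2, 1.74% with Buffer_only and 2.39% with Enzyme_only at 1 ng (exact permutation p = 0.3), and 2.61%, 2.33% and 3.20% at 100 pg (p = 0.4 by the exact permutation test). The difference seen on the strand of the gene was therefore not detectable there.

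Sites of the RBFOX2 libraries gathered on both sides of the motif at 1 ng. Counted per 10 nt of distance, 1.59% of all near-exon sites lay 10 to 25 nt 3′ of the motif centre with RBFOX2, 0.167% with Buffer_only and 0.434% with Enzyme_only. At 10 to 25 nt 5′ of it the values were 0.832%, 0.0750% and 0.347%. In both of these bins the RBFOX2 and Buffer_only libraries did not overlap (exact permutation p = 0.1).

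In the 10 nt directly 5′ of the centre, which include the one cytosine of the motif, RBFOX2 held 1.12% and Buffer_only 0.726% with overlapping libraries (exact permutation p = 0.3). Farther 3′ the libraries overlapped at 50 to 100 nt, with 0.424% against 0.163% (exact permutation p = 0.2), and did not at 25 to 50 nt and 100 to 200 nt, the latter with 0.350% against 0.178%. Farther 5′ they overlapped at 25 to 50 nt and 50 to 100 nt and not at 100 to 200 nt. The 100 pg bin 10 to 25 nt 3′ of the centre held 0.559%, 0.0662% and 0.492%, from 22, 2 and 6 sites, and the Enzyme_only library was close to RBFOX2 there.

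**Figure D3:**
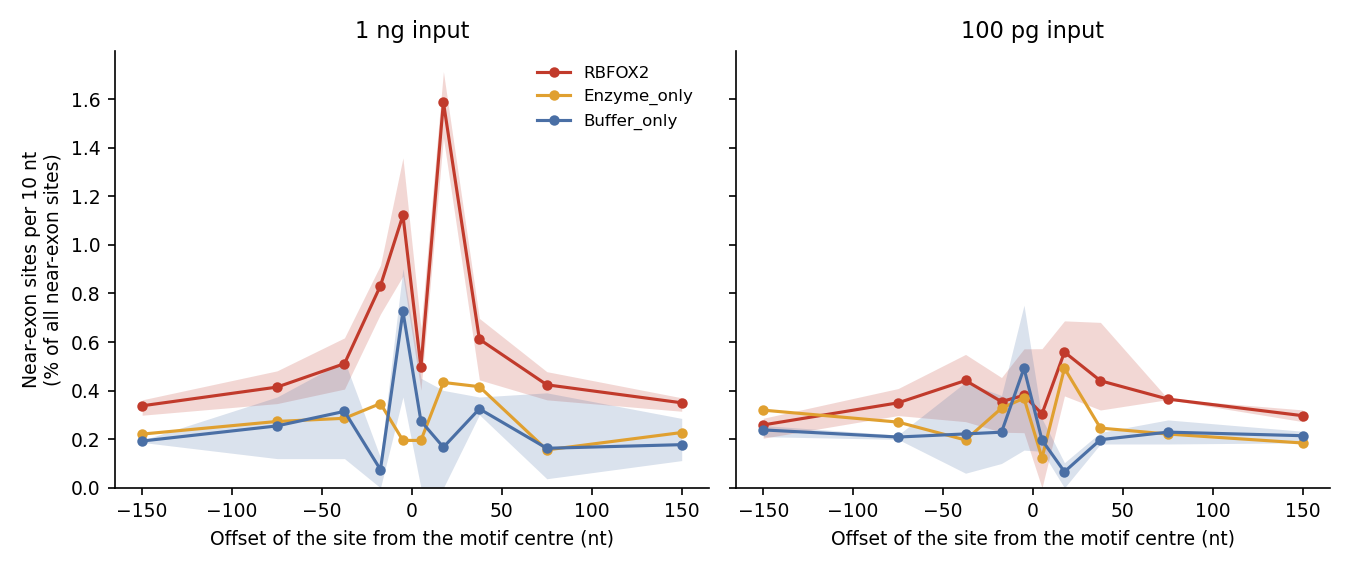
Near-exon sites around the nearest UGCAUG (vertical axis, percent of all near-exon sites per 10 nt; horizontal axis, offset of the site from the motif centre in nt, negative 5′ and positive 3′), at 1 ng on the left and 100 pg on the right. Lines are means over libraries, shaded bands the range over 3 libraries, and Enzyme_only is 1 library. The RBFOX2 line at 1 ng peaks at 1.59% in the bin 10 to 25 nt 3′ of the motif.

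The difference in motif share was not restricted to the neighbourhood of exons. In the same RBFOX2 libraries at 1 ng, 7.25%, 7.08% and 7.46% of the sites deeper in introns and 5.84%, 5.50% and 5.87% of the sites in exons lay near UGCAUG. The near-exon share was higher than the deep share by 0.79 percentage points on average with RBFOX2, and lower by 0.03 points with Buffer_only. The libraries did not overlap (exact permutation p = 0.1), but the Enzyme_only library had a difference of 0.27. The groups overlapped at scores of at least 0.9, with a gap of 0.43 points in place of 0.82 (exact permutation p = 0.5), and at 10 reads or more, with 1.82 (exact permutation p = 0.2). Without RBFOX2 replicate 2 the gap was 0.51. In 100 pg libraries the near-exon share was below the deep share in every library of both groups, by 0.56 and 0.72 points on average (exact permutation p = 0.8).

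Near-exon sites made up 5.49% of the gene-strand sites of protein-coding genes with RBFOX2 and 5.97% with Buffer_only at 1 ng (exact permutation p = 0.2). At 100 pg they made up 5.70% and 7.37%, and there the groups did not overlap (exact permutation p = 0.1). Among intronic sites alone the near-exon share at 1 ng was 23.3% ± 0.490 with RBFOX2, 21.2% ± 0.284 with Buffer_only (SD, n = 3; exact permutation p = 0.1) and 21.1% with Enzyme_only. At 100 pg it was 20.9%, 20.4% (exact permutation p = 0.8) and 19.2%.

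The base before the edited cytosine set both treatments with enzyme apart from Buffer_only at 1 ng. At 1 ng A or U preceded the cytosine in 76.3%, 76.9% and 76.3% of the near-exon sites with RBFOX2 and 74.8% with Enzyme_only, against 50.8%, 51% and 53.2% with Buffer_only (exact permutation p = 0.1 for RBFOX2 against Buffer_only). The cytosines of these windows, counted in the genes with a near-exon site, follow A or U in 51.5% of cases. Buffer_only was thus near the makeup of the reference there. Means at 100 pg were 58.4% with RBFOX2, 53.6% (50.2 to 57.0) with Enzyme_only and 49.0% with Buffer_only, and the RBFOX2 and Buffer_only libraries did not overlap (exact permutation p = 0.1).

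The density of sites was read per 1000000 reference cytosines in bins of distance, counted in the genes with a near-exon site. At 1 ng RBFOX2 libraries exceeded Buffer_only libraries without overlap in all 7 upstream and all 7 downstream bins, by 1.97 to 3.04 times upstream and 1.64 to 2.86 times downstream (exact permutation p = 0.1 in each bin). Downstream of exons the RBFOX2 density was 142 within 10 nt of the splice site, 190 at 51 to 100 nt, 182 at 101 to 200 nt and 143 at 401 to 500 nt. The Enzyme_only library held 135, 225, 171 and 140 there, and over both sides it lay outside the range of the RBFOX2 libraries in 6 of 14 bins. Buffer_only was highest within 10 nt, at 86.6, and at 53.3 in the last bin.

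Upstream of exons the RBFOX2 density at 1 ng was 120 within 10 nt and 84.1 at 401 to 500 nt, and the Buffer_only density 60.8 and 32.5. At 100 pg the groups did not overlap in 4 of 7 upstream and 5 of 7 downstream bins, with ratios of 1.01 to 1.44 and 1.17 to 1.47. The bins within 10 nt of the exon edge held few sites and overlapped at 100 pg.

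**Figure D4:**
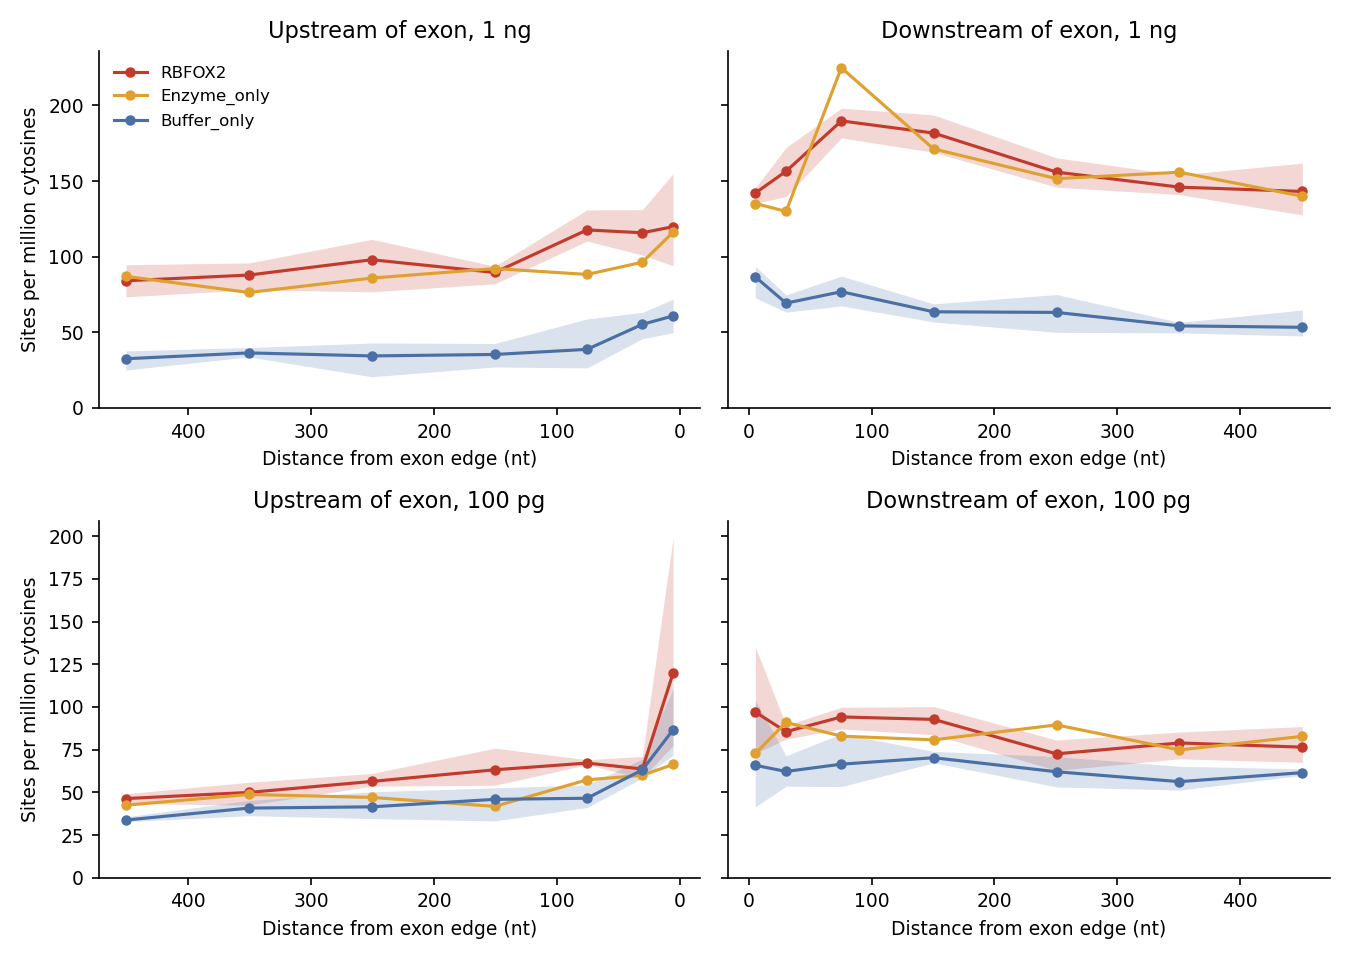
Density of near-exon sites (vertical axis, sites per 1000000 cytosines of the reference) against distance from the exon edge (horizontal axis, nt, drawn so that the exon lies between the left and right panels), at 1 ng above and 100 pg below. The cytosines are those of genes with a near-exon site. Lines are means over libraries at the middle of each bin, bands are the range over 3 libraries, and Enzyme_only is 1 library. At 1 ng RBFOX2 and Enzyme_only both lie above Buffer_only in every bin, reaching 190 and 225 at 51 to 100 nt downstream.

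Positions right at the exon edge took a smaller share of the RBFOX2 sites than of the Buffer_only sites at 1 ng. Within 10 nt of the edge lay 2.21% ± 0.266 of the RBFOX2 sites and 3.13% ± 0.365 of the Buffer_only sites (SD, n = 3; exact permutation p = 0.1), and 2.21% of the Enzyme_only sites. The 100 pg shares were 3.54% and 3.26% with overlapping libraries (exact permutation p = 0.7).

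The motif content along the window was counted in bins, and a difference between bins was not tested. Pooled over the 3 RBFOX2 libraries at 1 ng, sites 101 to 200 nt upstream of the exon had UGCAUG nearby in 45 of 347 cases (13%) and those 101 to 200 nt downstream in 78 of 729 (10.7%). The shares were 4.62% (3 of 65 sites) and 7.32% (3 of 41) within 10 nt and 6.13% and 7.76% at 401 to 500 nt. In the single libraries the downstream share within 10 nt was 15.4%, 0% and 7.14%. Without MTHFD2 the upstream bin of 101 to 200 nt held the motif by 32 of 334 sites (9.58%). With Buffer_only the bins of 101 to 200 nt held it by 1 of 137 sites upstream (0.730%) and 13 of 255 downstream (5.10%). With MTHFD2 left out, the upstream share over all distances was 7.60% with RBFOX2 against 2.18% with Buffer_only at 1 ng, and the groups did not overlap. At 100 pg it was 2.85% against 1.94% and the groups overlapped (exact permutation p = 0.2).

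RBFOX2 regulates cassette exons, and the share of sites beside them was similar in all treatments. Overlapping exons of a gene were merged into blocks, and a block inside any annotated intron of the gene counted as cassette, so this class is broad. The share covers all near-exon sites, with or without a motif nearby, and does not test a preference of RBFOX2 binding. Cassette blocks flanked 37.6% ± 0.556 of the near-exon sites with RBFOX2, 37.8% ± 1.55 with Buffer_only (SD, n = 3; exact permutation p = 0.8) and 39.5% with Enzyme_only at 1 ng. At 100 pg the shares were 37.2%, 38.5% (exact permutation p = 0.4) and 38.0%.

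The reads behind a near-exon site were few. The median coverage of a site was 10 reads with RBFOX2 and 10.3 with Buffer_only at 1 ng, and 13.7 and 12 at 100 pg, with a minimum of 5. The median edit fraction was 0.143 in each RBFOX2 library at 1 ng against 0.123 on average in Buffer_only (exact permutation p = 0.1), but 0.167 in both at scores of at least 0.9 (exact permutation p = 1). It was 0.116 and 0.10 at 100 pg (exact permutation p = 0.1). The number of edited reads in near-exon sites was 2687 to 2898 per RBFOX2 library and 825 to 1092 per Buffer_only library at 1 ng.

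Almost no position was called again. Of the 4700 positions of the RBFOX2 libraries at 1 ng, 98.4% were called in 1 library, 62 in 2 and 11 in 3, and of the 1832 positions of Buffer_only 98.6% were called in 1. Shares at 100 pg were 99.3% of 2606 and 99.4% of 1999. There were 48 positions in 42 genes called in at least 2 RBFOX2 libraries and no control at 1 ng, of which 14 (29.2%) had UGCAUG within 50 nt. The mean share per library over all near-exon sites of these libraries was 8.06%. The 48 were chosen by their RBFOX2 calls and by absence from the controls. Several of the 14 lie beside the same motif copy, so the 29.2% is a description and not a test. The number of Buffer_only positions called in at least 2 libraries and in no other group was 5. In all, 17 and 8 Buffer_only positions were called in 2 and in 3 libraries, most of them also in another group. At 100 pg there were 3 such RBFOX2 positions, 0 of them by a motif, and 0 for Buffer_only.

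The 14 repeated positions by a motif lay in MTHFD2 (5 positions), DNM2 (2) and, with 1 each, SRSF11, VPS29, ATP5F1C, ATXN1, MTAP, RNF121 and SIPA1L1. ATP5F1C encodes the gamma subunit of mitochondrial ATP synthase, and its near-exon sites numbered 1, 0 and 6 in the RBFOX2 libraries and 0 in every control of 1 ng. ATXN1, ataxin-1, held 6, 0 and 2, against 1 in Enzyme_only and 1, 0 and 0 in Buffer_only. MTAP, which salvages methylthioadenosine, held 2, 6 and 5, against 0 in Enzyme_only and 0, 1 and 1 in Buffer_only. ATP5F1C and ATXN1 each had a library without any site, and their RBFOX2 libraries overlapped with Buffer_only.

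Per gene the numbers were small. At 1 ng 2375 genes had a near-exon site in an RBFOX2 library, 57.9% of them a single site over the 3 libraries, and 185 had 5 or more. SRSF11 had the most, with 5, 6 and 13 sites in the RBFOX2 libraries, 2 in Enzyme_only and 2, 0 and 2 in Buffer_only. MTHFD2 followed with 8, 8 and 6, 1 in Enzyme_only and 0 in each Buffer_only library. Its 22 sites against none give a ratio of 7.33 when 3 counts are taken as the floor of the Buffer_only group. These are raw counts, and over all near-exon sites the RBFOX2 mean was already 2.57 times the Buffer_only mean. MTHFD2 was named for its RBFOX2 counts, so the ratio is a description and not a test. Of the 22 sites, 20 lay upstream of the exon and 14 within 50 nt of UGCAUG.

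HNRNPK, an RNA-binding protein of splicing and translation, held 2, 10 and 8 near-exon sites with RBFOX2, 1 with Enzyme_only and 1, 1 and 0 with Buffer_only, and 1 of its RBFOX2 sites was near a motif. ANKRD10 held 4, 3 and 12, and NASP, a chaperone of histones, 3, 4 and 11, with 1 and 4 in Enzyme_only and 1 in each Buffer_only library of both genes. GART, an enzyme of purine synthesis, held 9, 4 and 3 against 1, 2 and 1 with Buffer_only. ZNF638, a zinc finger protein, held 3, 8 and 5 against 0, 0 and 1. TPR, a protein of the nuclear pore basket, held 2, 9 and 6 against 2, 0 and 2, and the groups overlapped. Among these high counts a motif was near 14 of the MTHFD2 sites, 10 of the 24 SRSF11 sites, and none of those of TPR and ZNF638.

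**Figure D5:**
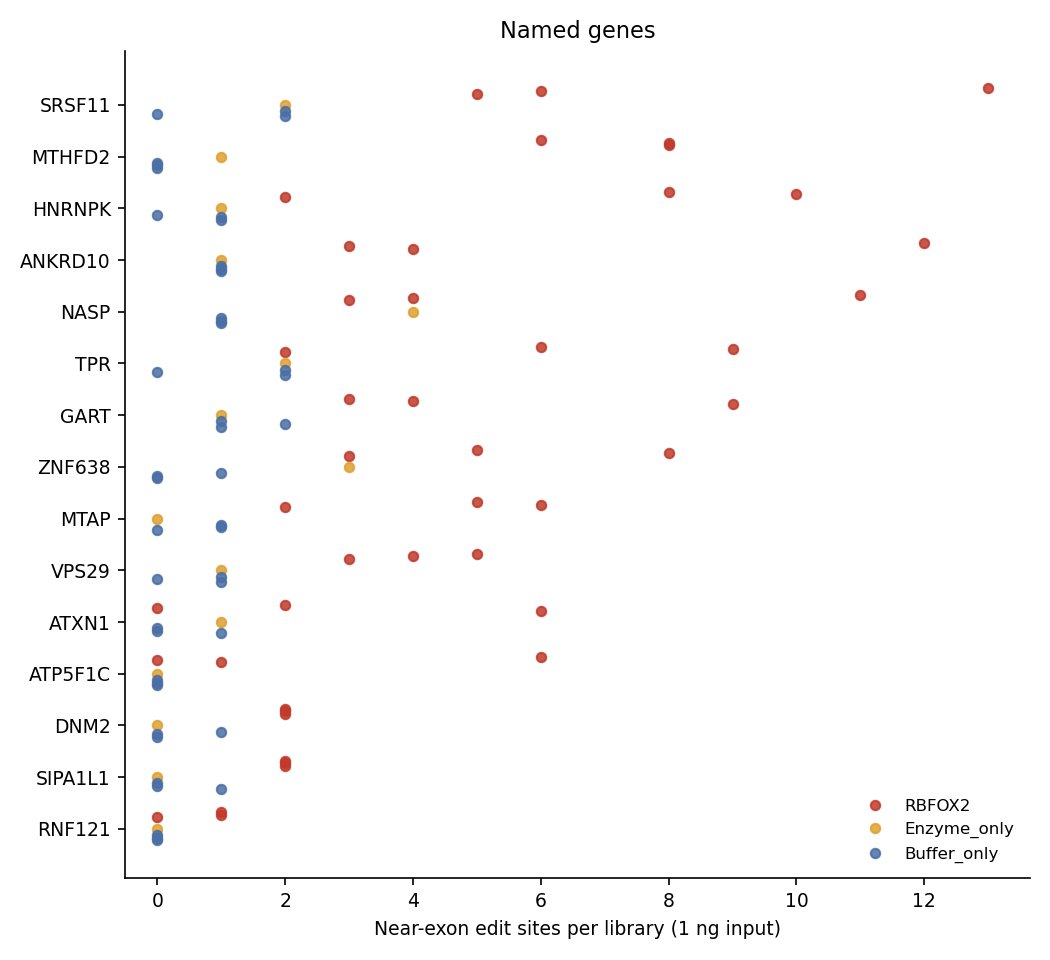
Near-exon sites per library at 1 ng (horizontal axis, number of sites) in the genes named for repeated positions by a motif or for the most sites (vertical axis). Points are libraries, drawn with a small vertical shift by treatment, with 3 for RBFOX2, 1 for Enzyme_only and 3 for Buffer_only. MTHFD2 points with RBFOX2 sit at 6 and 8 and its Buffer_only points at 0, while those of TPR overlap at 2.

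Among the 2988 genes with a near-exon site in an RBFOX2 or Buffer_only library of 1 ng, 88 (2.95%) had every RBFOX2 library above every Buffer_only library and 4 (0.134%) the reverse. The numbers at 100 pg were 20 (0.696%) and 3 (0.104%) of 2874. MTHFD2, SRSF11, HNRNPK, ANKRD10, NASP, GART, ZNF638, MTAP, VPS29, DNM2 and SIPA1L1 were among the 88. These genes were named for high counts in RBFOX2 libraries, so their place there is a description.

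With the number of sites scaled to the library and tested across all genes and regions, no near-exon gene was called. A site count per gene and region was tested with edgeR's quasi-likelihood test for 1608 features at 1 ng, of which 8 were near-exon ones. Higher calls made up 0% of the features and lower calls 0%, at an adjusted p under 0.05. MTHFD2 had a log2 fold change of 5.37 ± 1.40 (edgeR adjusted p = 0.0979), and SRSF11 of 1.13 ± 0.79 (edgeR adjusted p = 0.496). The ± value is the fold change over the square root of the F statistic, an approximate SE. For MTHFD2, with 0 Buffer_only sites, the fold change and its ± value are nominal. Before adjustment 1 near-exon feature was higher and 4 were lower at a p under 0.05, and DESeq2 called 0. The filter worked on counts relative to library size, so fewer sites sufficed in Buffer_only than in RBFOX2 libraries. MTHFD2, with 0 Buffer_only sites, passed it through RBFOX2 libraries alone. Features with few RBFOX2 sites passed it through their Buffer_only counts. The tally of 1 and 4 thus depends on the filter and is not a result about these genes.

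The 4 lower ones were SOD2, RASA1, HNRNPL and WASHC1, named after their values were seen. Their raw means of 1.00, 1.67, 1.33 and 4.33 sites with RBFOX2 and 2.33, 2.33, 2 and 4 with Buffer_only differed by little before scaling. WASHC1 has near-identical copies in the genome, and its count is uncertain. At 100 pg 400 features were tested, 1 of them near-exon, and none of the near-exon ones was called, while 3.25% of all features were called higher and 0.25% lower.

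At 100 pg the genes with the most near-exon sites were IARS1, WASHC1, MEIOC, TPR and NUF2. IARS1 held 7, 1 and 4 with RBFOX2 and 0, 1 and 0 with Buffer_only. MEIOC, a gene known from meiosis, held 4, 3 and 3 against 4, 3 and 0, and NUF2, a subunit of the kinetochore, 0, 1 and 8 against 0 in all controls, all but 1 of its sites in a single library. CEBPZ, with 2, 3 and 2 sites against 1, 1 and 1, was the one gene of the named set whose groups did not overlap at this input.

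The other genes of the splicing pathway were read from fixed lists, as sums of near-exon sites per library. Of 61 SR and hnRNP genes, the proteins that help to define exons, 45 had a near-exon site in some library. They held 32 to 45 sites per RBFOX2 library, 21 in Enzyme_only and 11 to 12 per Buffer_only library at 1 ng, with 16 RBFOX2 sites by a motif and 0 in the controls. SRSF11 alone gave 10 of these 16, and 24 RBFOX2 sites in all. Over all near-exon sites of 1 ng the motif share was 8.06% with RBFOX2, 3.32% with Enzyme_only and 2.96% with Buffer_only. The controls held fewer sites of this list, so 16 against 0 is a description and not a trait of these genes. At 100 pg the genes of the list held 15 to 18, 10 and 5 to 13. SRSF10 held 0, 4 and 3 sites, PNN 1, 4 and 0 and TRA2A 1, 0 and 5 in the RBFOX2 libraries at 1 ng. In Enzyme_only they held 1, 0 and 2, in Buffer_only 1 site in TRA2A and 0 elsewhere, and the groups overlapped in each.

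A list of 45 genes was drawn up for exons regulated by RBFOX proteins. It also held APP, PKM, OGT and DEPDC1, which the study itself shows as RBFOX2 examples, so it is not independent of the study. Of the 45 genes, 32 had a near-exon site. They held 18 to 21 per RBFOX2 library, 13 in Enzyme_only and 2 to 4 per Buffer_only library at 1 ng, with 5, 1 and 0 by a motif. These motif counts come from unequal numbers of sites and were not tested. At 100 pg the genes of the list held 5 to 6, 2 and 3 to 13, so the groups overlapped. EPB41L2, which links the membrane to actin, held 5, 4 and 2 against 0 in each control library of 1 ng, with 2 of the RBFOX2 sites by a motif. APP, the amyloid precursor, held 0, 5 and 1, PKM, the pyruvate kinase, 2, 2 and 4, and RBFOX2 itself 3, 0 and 1 with 0 by a motif. The Enzyme_only library held 1, 2 and 0 in these genes, the Buffer_only libraries 0 in APP, 2, 0 and 0 in PKM and 0, 0 and 1 in RBFOX2, and the groups overlapped in each. ECT2, which acts in cytokinesis, held 3 sites in Enzyme_only and 0 in every RBFOX2 library.

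Lists chosen for other roles also held more near-exon sites per RBFOX2 library than per Buffer_only library at 1 ng. Of 36 core spliceosome genes 24 had a near-exon site, with 6 to 12 per RBFOX2 library, 13 in Enzyme_only and 1 to 5 per Buffer_only library at 1 ng. Of 37 cytoskeleton and motor genes 21 did, with 7 to 15, 6 and 1 to 5. Of 40 chromatin regulators 29 did, with 12 to 25, 28 and 3 to 4. In the 100 pg input the groups overlapped in these lists. The spliceosome genes held 1 to 8 with RBFOX2, 2 with Enzyme_only and 1 to 3 with Buffer_only there, the cytoskeleton genes 2 to 4, 0 and 1 to 8 with means of 3 for RBFOX2 and 5 for Buffer_only, and the chromatin genes 4 to 8, 11 and 4 to 5. BPTF, a subunit of a chromatin remodeller, held 5, 4 and 4 sites with RBFOX2, 2 with Enzyme_only and at most 1 with Buffer_only.

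CHD1, another remodeller, held 8 near-exon sites in the Enzyme_only library and 0, 0 and 6 in the RBFOX2 libraries at 1 ng. SUZ12, of the Polycomb complex, held 7 in Enzyme_only and 1, 0 and 0 with RBFOX2. All lists, the splicing ones included, were chosen with earlier results of these data known, and no list was tested. Of 9 markers of the HEK293 line 1 had a near-exon site and of 10 markers of other cell types 1 did, each in a Buffer_only library, and both lists held 0 sites in every RBFOX2 library, so introns give no check of the cell type.

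Edit clusters of the study seldom covered near-exon sites repeatedly. Clusters called in single libraries held 91.4% to 92.4% of the near-exon sites of RBFOX2 libraries at 1 ng, 93.1% in Enzyme_only and 83.5% to 85.9% in Buffer_only. Of the 776 clusters of 1 ng that the authors kept from all 3 replicates and cleaned of Buffer_only clusters, 15 held a near-exon site of an RBFOX2 library, and these covered 51 (1.09%) of its 4700 positions. At 100 pg it was 4 of 214 clusters.

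Of the 15, those in MTHFD2, SRSF11, DNM2, VPS29, GARS1 and SLIT2, a guidance ligand, held a near-exon site by UGCAUG. HNRNPK had a cluster 37 to 157 nt before an exon with 6 near-exon positions and none by a motif. The clusters of NBPF9, GOLGA8A, STAG3 and POLR2J3 lie in gene families with near-identical copies, so their positions are uncertain. NBPF9 and STAG3 had such clusters at both inputs, and neither held a site by the motif.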

How the data were processed

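Edit calls of 14 libraries of HEK293T RNA were analysed, 7 per input. Per the methods of the study and the labels, the authors trimmed reads with cutadapt, removed reads of repeats, aligned the rest with STAR to hg38 (version 2.4.0 by the notes of the submitters), called C-to-U mismatches with SAILOR, removed known variants, and called clusters with FLARE. The authors deposited per library a position table with the SAILOR score and a pair of edited and all read counts, kept above a score of 0.5, and a cluster table with counts of edited and all reads. The edit fraction is the first count of the pair over the second. The deposited confident cluster lists, made over the 3 replicates, give a mean coverage signal and were used only for cluster positions. The study names an approximate sequencing depth for both inputs together. The files used here give no total read count per library, so depth was not compared between libraries, and Wilson intervals cover counting error only.

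Positions were placed on Gencode 44 genes with Python 3.11.15, numpy 2.4.6, pandas 2.3.3 and scipy 1.17.1. Overlapping annotated exons of a gene were merged into blocks, and the exon edges and exon coordinates given here are those of the blocks. A position with several genes was given to the one with the nearest exon (669 positions), and the 7 ties of distance were counted as downstream. Groups came from the sample labels. Values per library were compared with exact two-sided permutation tests, 36 for measures per library (smallest adjusted p 0.171, Benjamini-Hochberg), 28 for distance bins (0.122) and 20 for offset bins (0.2). A difference was called when the ranges of the groups did not overlap, since an exact permutation test of 3 against 3 cannot go below p = 0.1. Site counts per gene and region were tested with edgeR 4.0.16 (R 4.3.3; TMM scaling, quasi-likelihood test, Benjamini-Hochberg at 0.05), and with DESeq2 1.42.0 as an alternative. A feature was kept with at least 5 sites over all and, in enough libraries, the rate that 3 sites make in a library of median size. That cut asks for fewer sites in a smaller library. On simulated counts of the 1 ng comparison the edgeR step ran on 1875 features, recovered 59.6% of 99 features changed 4-fold and 99% of 100 changed 8-fold, and made 6 false calls. For 100 pg it ran on 776 features and recovered 41.2% of 97 and 97% of 100, with 6 false calls. The changed features were raised only, and came from any region above a minimum number of sites. The recovery therefore does not measure power for the sparse near-exon genes. Figures were drawn with matplotlib 3.10.9.

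Named genes are, per input, those with repeated RBFOX2 positions by a motif, those with the most near-exon sites, and the members of fixed lists with the most sites. The members, lists and rules were chosen with earlier results of these data known, and not every gene that the rules give is printed. Other distance, score, coverage, motif and counting settings, left-out replicates and a replicate block were tried.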

Additional observations from a re-analysis of the deposited data

Results flagged for a closer look

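The gap between RBFOX2 and Buffer_only in the number of near-exon sites was larger at 1 ng by the unadjusted test of the difference itself, and not after adjustment. The gap was 973 sites at 1 ng and 206 at 100 pg, so it was 767 sites larger at 1 ng (exact permutation p = 0.03). Upstream of exons it was 277 sites larger (exact permutation p = 0.01) and downstream 490 sites larger (exact permutation p = 0.035). All 3 RBFOX2 libraries lay above all 3 Buffer_only libraries at either input and on either side. Adjusted over the 6 differences between inputs that were tested, the 3 p-values were 0.07, 0.06 and 0.07. At scores of at least 0.9 the gap was 594 sites larger (exact permutation p = 0.075). Buffer_only libraries held similar numbers at both inputs, 535 to 665 and 644 to 702, and RBFOX2 libraries 1491 to 1673 and 873 to 881. The study names an approximate depth for both inputs together, total reads per library are not in the files used here, and the part of depth in this difference was not tested.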

How the results depend on the processing

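Of 104 alternative values for the number of near-exon sites and the share after A or U, 104 kept direction and separation of the groups, and so did 51 of 51 for the 1 ng motif shares with UGCAUG or GCAUG. The values below are RBFOX2 minus Buffer_only, in percentage points for shares, and the cause of each change was not tested. Leaving out MTHFD2, and the opposite-strand, near-exon minus deep and between-input alternatives other than the replicate block between inputs, were chosen after seeing the data. The weakest result was the 1 ng downstream minus upstream motif difference (−1.66): its groups overlapped at −2.63 with a limit of 200 nt, −1.90 without the 10 nt at the edge, −2.02 at scores of at least 0.9, −2.35 at 10 reads or more, −1.06 with a window of 100 nt, −0.73 with GCAUG, −0.28 with GCACG, −0.59 with UGUGUG and −0.95 without MTHFD2. At 100 pg that difference was 1.78 and its groups came apart at 2.89 with the window of 100 nt and 1.28 with UGUGUG, and it was −0.97 with GCACG. The 100 pg upstream motif share (0.99) lost its separation at 0.84 with 10 reads or more, 0.88 in introns of 1 gene only, 0.68 with each flank counted once, −0.0694 with a window of 25 nt, 0.57 with GCAUG, 0.62 with GCACG, 0.0327 with UGUGUG and 0.91 without MTHFD2. The 100 pg downstream share (2.77) did so at 1.59 with the window of 25 nt, −0.35 with GCACG and 1.31 with UGUGUG, and the whole 100 pg share at 0.0193 and 0.76 with those 2 motifs. With GCACG the 1 ng shares were −0.94 in all, −0.78 upstream and −1.06 downstream, and with UGUGUG 1.00 upstream and 0.41 downstream.

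Differences that were not called changed sign or came apart as follows. The cassette share at 1 ng was 0.0640, 0.77, 0.24 and 0.71 with the limit of 200 nt, the score minimum, 1 gene only and each flank once, and at 100 pg 0.0338 and 0.32 with the first 2 of these. The downstream share was −0.0263 at 1 ng and −0.46 at 100 pg with the score minimum, and −0.12 at 1 ng with each flank once. The 100 pg edge share was −0.39 with the score minimum and −0.14 for 25 nt. The 1 ng share of gene-strand sites came apart at −0.29 for 200 nt and −0.67 for 10 reads or more. The 100 pg median coverage came apart at 2.00, 1.00 and 2.00 reads for 200 nt, the score minimum and 1 gene only. The near-exon minus deep motif share at 100 pg was −0.10 with 10 reads or more and −0.0309 with 1 gene only. The opposite-strand number at 1 ng was 0.333 for 200 nt. The 1 ng gap in the median edit fraction was 0 with the score minimum, and the gap between inputs in site number was 594 there (exact permutation p = 0.075).

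Leaving out each replicate in turn gave, at 1 ng, −0.89 to 1.48 for the downstream share, −1.12 to 0.36 for the cassette share, −0.71 to −0.37 for the share of gene-strand sites, −29.5 to 7 for the opposite-strand number, 0.51 to 1.02 for the near-exon minus deep motif share and 0.53 to 1.35 for its motif share. At 100 pg it gave −1.37 to 1.88 for the downstream share, 0.97 to 2.45 for the motif side difference, −2.04 to −0.48 for the cassette share, −0.23 to 0.85 for the near-exon share of introns, −0.46 to 0.86 for the edge share, 1.17 to 2.17 reads for the coverage, −0.0773 to 0.37 for the near-exon minus deep share and 0.0413 to 0.41 for the opposite-strand motif share.

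Libraries of the same number showed no shared deviation (correlations of 0.05, 0.01 and 0.05 over 287 genes at 1 ng, and 0.07, −0.05 and 0.09 over 90 genes at 100 pg). With so few sites per gene these correlations cannot tell whether the numbers pair the samples. The study ran its replicates on 3 separate slides, and the labels do not say whether a number stands for a slide. With the replicate block the gap between inputs was 767 sites (exact permutation p = 0.0625; 0.0312 upstream and 0.125 downstream), and the smallest p for 3 pairs is 0.25. The block moved no call of a near-exon gene feature. In the edgeR test over all features it gave 30 higher and 3 lower calls at 1 ng in place of 0 and 0, and 7 and 0 at 100 pg in place of 13 and 1. Without scaling, 642 features were called higher and 2 lower at 1 ng and 119 and 0 at 100 pg, 2 of the 1 ng ones near-exon, and the median log2 fold change at 1 ng was 1.61 in place of 0.28. Leaving out 1 replicate took the 13 higher calls of 100 pg to between 0 and 13. Without a count filter 1 near-exon feature was called higher at 1 ng, among 74 features in all. The default filter, and at 1 ng the limit of 200 nt, left no near-exon feature to test. Positions had 5 reads or more, few were called again, and most genes had too few near-exon sites to test.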
